A study of Mus musculus with 4 samples.

Results

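The nuclei described here met a rule written for hilar mossy cells, and they numbered 204 of the 32572 nuclei with at least 5000 unique molecular identifiers (UMIs, 1 per captured RNA molecule) in 4 hippocampus libraries. A nucleus qualified with at least 1 UMI each of at least 2 of Drd2, Calb2, Csf2rb2 and Ociad2, at least 4 UMIs of those 4 genes together, at least 1 UMI of Slc17a7, at most 1 UMI of Prox1 and at most 1 UMI of Gad1 and Gad2 together. These 8 genes chose the nuclei, so their levels are given only as a description. Nuclear RNA was sequenced from the hippocampus of adult mice on the droplet system of 10x Genomics. The 2 Control libraries came from Kat6a-f/f mice, in which Kat6a is flanked by recombination sites, and the 2 Kat6a-cKO libraries from Kat6a-f/f mice that also carried NEX-cre. NEX-cre is a Cre recombinase at the Neurod6 gene, which is active in forebrain excitatory neurons, so that both groups share the floxed allele and only Kat6a-cKO carries Cre. The labels do not say how many animals went into a library, so the spread between the 2 libraries of a group may be partly technical.

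Mossy cells are large excitatory neurons of the dentate hilus. They receive input from dentate granule cells and CA3 pyramidal cells and send axons along and across the hippocampus to granule cells and to interneurons. In mice they are known for the dopamine D2 receptor gene Drd2 and, in part of the population, for the calcium-binding protein gene Calb2 (calretinin). Kat6a encodes a histone acetyltransferase, and the title of the series places RSPO2 and Wnt signalling in CA3 neurons at its centre. The comparison below asks which genes differed with genotype in nuclei of the mossy rule, and whether the same genes differed in CA3 and dentate granule nuclei.

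The rule picked 51 and 53 nuclei from the Control libraries, or 0.618% and 0.666% of their nuclei. From the Kat6a-cKO libraries it picked 56 and 44, or 0.663% and 0.556%. The exact binomial 95% intervals of these shares all overlapped, from 0.404% at the lowest bound to 0.870% at the highest. The mean share was 0.642% ± 0.0341 in Control and 0.610% ± 0.0758 in Kat6a-cKO (SD, n = 2 libraries each). The difference, Kat6a-cKO minus Control, was -0.0319 percentage points, with a two-sided exact permutation p of 0.667, and 2 libraries against 2 cannot give a p under 0.3333. The direction of this difference was not stable. It became 0.0217 percentage points with Kat6a-cKO replicate 2 left out and 0.0739 with Prox1, Gad1 and Gad2 all at 0. In choices of nuclei made after seeing the data it was 0.0243 with at least 20 UMIs of the gene Gm32647 per 10000, 0.0179 with a marker pair without Ociad2 and 0.0871 with nuclei chosen by Gm32647 and Bmpr1b. The median nucleus held 33056 and 29574 UMIs in Control and 25836.5 and 26039.5 in Kat6a-cKO, and both Control libraries were above both Kat6a-cKO libraries. Summed, the Control nuclei held 1682816 and 1601057 counts, and the Kat6a-cKO nuclei 1542227 and 1218450. Any 2 libraries shared 15 to 20 cell barcodes among their nuclei.

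The 4 marker genes were found in different numbers of the nuclei. Csf2rb2, a receptor subunit related to the beta chain of cytokine receptors, had a UMI in 167 of the 204 nuclei (81.9%), Ociad2 in 133 (65.2%), Drd2 in 115 (56.4%) and Calb2 in 83 (40.7%). Of the nuclei, 131 carried 2 of the 4 genes, 56 carried 3 and 17 carried all 4. The summed counts gave Csf2rb2 at 106 and 179 CPM (counts per 1000000) in Control and 133 and 119 in Kat6a-cKO, against at most 2.12 CPM in nuclei chosen in the same libraries by CA3 markers. Ociad2 was at 60.6 and 46.2 CPM in Control and 44.1 and 61.6 in Kat6a-cKO, and the CA3-marker nuclei held 46.7 to 52.5 CPM of it. Nuclei that met the mossy rule were kept out of the CA3-marker and granule-marker nuclei, so part of each gap in these 4 genes is set by the rules, and nothing is read from it.

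A second gene, not used by the rule, split the 204 nuclei. Gm32647, a predicted non-coding gene, ranged from 0 to 152 UMIs per 10000 UMIs of a nucleus, and 145 nuclei (71.1%) held at least 20 per 10000. The other 59 held less, and 18 of the 204 lay between 8 and 30. The value of 20 per 10000 was chosen after the distribution had been seen. Of the 128 nuclei with at least 2 of Drd2, Calb2 and Csf2rb2, 127 were above it. Of the 76 nuclei with Ociad2 and 1 other marker, 18 were above it, and the 25 nuclei with Calb2 and Ociad2 alone were all below. Little Gm32647 was found in 20 of 51 and 14 of 53 nuclei of Control, against 13 of 56 and 12 of 44 of Kat6a-cKO. Control replicate 1 had the most.

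**Figure D1:**
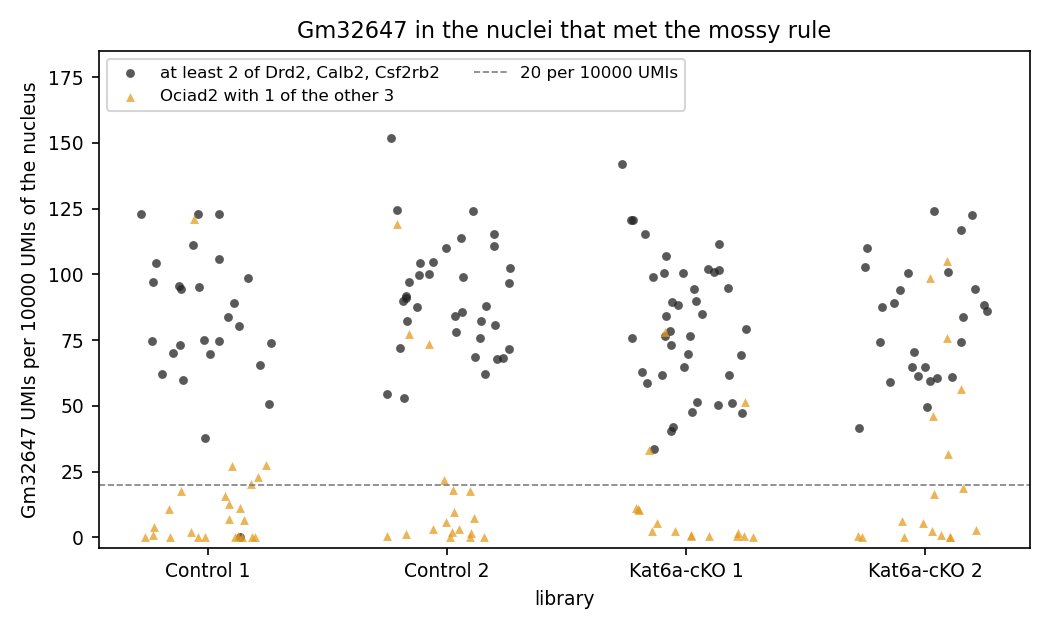
Gm32647 UMIs per 10000 UMIs (y axis) in each of the 204 nuclei of the mossy rule, by library (x axis, points spread sideways for sight). Black circles are nuclei with at least 2 of Drd2, Calb2 and Csf2rb2 (128 nuclei), orange triangles are nuclei with Ociad2 and 1 of the other 3 (76 nuclei), and the dashed line is at 20. The circles lie above the line but for 1 nucleus, and most triangles lie below it.

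The border of the rule fell inside this split. Of the 58 nuclei with exactly 4 marker UMIs, the fewest that qualify, 16 (27.6%) held at least 20 Gm32647 UMIs per 10000. Of the 74 nuclei that missed only by having 3 marker UMIs, 16 (21.6%) did. The order differed between libraries: it was 40.0% inside against 13.0% outside in Control replicate 1 and 41.2% against 17.6% in Kat6a-cKO replicate 1, but 13.3% against 15.8% in Control replicate 2 and 9.09% against 46.7% in Kat6a-cKO replicate 2. Outside the rule, 417 nuclei (57 and 96 in Control, 133 and 131 in Kat6a-cKO) held at least 20 Gm32647 UMIs per 10000, with no other exclusion applied, so that this level was not confined to nuclei of the rule. Of the nuclei outside it, 38 that met the same exclusions (3 and 8 in Control, 10 and 17 in Kat6a-cKO) held at least 40 Gm32647 UMIs per 10000 and at least 2 UMIs of Bmpr1b. The rule therefore left out some nuclei with this pair of genes, more of them in Kat6a-cKO, and took in some with little Gm32647.

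The genes that led the summed counts outside the rule are a description of the chosen nuclei, given with no test. They were ranked by their mean CPM over the highest of 3 references, which were the CA3-marker nuclei (4296), the dentate-granule-marker nuclei (7420) and all nuclei, with 5 CPM added to each. Glra3, a glycine receptor subunit, came first, at 76.1 and 82.4 CPM in Control and 136 and 108 in Kat6a-cKO, against a mean of 6.96 in CA3-marker and 1.52 in granule-marker nuclei. Gm32647 was at 5072 and 6884 CPM in Control and 5970 and 5770 in Kat6a-cKO, against 702 and 45.4. Bmpr1b, a receptor for bone morphogenetic proteins, was at 120 and 262 CPM in Control and 160 and 172 in Kat6a-cKO, against 9.06 and 4.57. Each of these genes was higher in all 4 mossy sums than in any sum of the other classes. Kctd8, an auxiliary subunit of GABA-B receptors, averaged 386 CPM against 28.9 and 9.95, and Necab1, a neuronal calcium-binding protein, 216 against 15.3 and 20.0. Trpc7, a cation channel, averaged 86.2 CPM against 9.04 and 1.48. Among the further leading genes were the transcriptional regulators Prrx1, Glis1 and Satb1, the G protein regulator Rgs6 and the phosphodiesterase Pde4b.

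**Figure D2:**
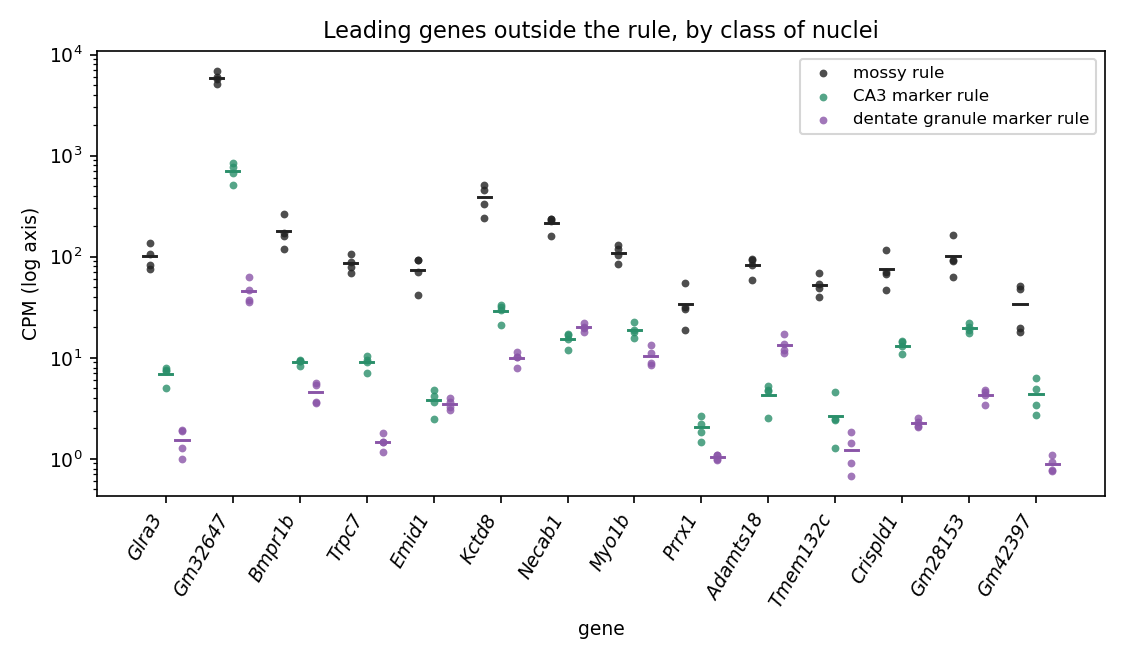
CPM on a log axis (y) of the 14 leading genes outside the rule (x) in the summed nuclei of the mossy rule (black), the CA3 marker rule (green) and the dentate granule marker rule (purple). Each point is 1 of the 4 libraries and each bar is their mean; Glra3 stands at a mean of 101 CPM in black against 6.96 in green.

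The leading genes were carried by the nuclei with much Gm32647. In those 145 nuclei Glra3 averaged 135 CPM over the 4 libraries, Kctd8 514 CPM and Necab1 289 CPM. In the 59 nuclei with little Gm32647 they averaged 7.19, 26.7 and 20.5 CPM, close to the CA3-marker means of 6.96, 28.9 and 15.3. Of 9 further genes known from mossy cells, some were above the references and some below. The adhesion gene Ajap1 (mean 155 CPM, against 49.2 in CA3-marker and 24.1 in granule-marker nuclei), the cannabinoid receptor Cnr1 (135 against 76.2 and 20.5) and the neuropeptide Nmb (6.15 against 1.33 and 1.27) were above both references in 4 of 4 libraries. Calcrl, a receptor for peptides of the calcitonin family, and the serotonin receptor Htr2c were below the CA3-marker nuclei in all 4, at means of 13.4 against 42.2 CPM and 20.6 against 110 CPM. Of the Htr2c counts, 50 of 65 in Control replicate 2 came from 1 nucleus. Glp1r and Cartpt had 3 counts each over all 204 nuclei.

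Markers of other cells were checked in the same sums. CA3 markers were high in both sets of nuclei and higher in the one with much Gm32647: they summed to 3130 to 3507 CPM in the nuclei with much Gm32647, to 2303 to 2629 CPM in the 59 others and to 3196 to 3424 CPM in the CA3-marker nuclei. CA1 markers summed to 355 to 496 CPM in the nuclei with much Gm32647, to 679 to 938 CPM in the 59 others and to 371 to 478 CPM in the CA3-marker nuclei. Markers of subiculum and deep cortex were high in all 3 sets. They summed to 1530 to 2383 CPM with much Gm32647, to 2299 to 3020 CPM in the 59 others and to 3348 to 4060 CPM in CA3-marker nuclei. The data go against the label for the 59, in which Glra3, Kctd8 and Necab1 were near their CA3-marker means. The marker lists overlap with the rules, since Prox1, a granule marker, and Gad1 and Gad2, inhibitory markers, were limited by the mossy rule, 4 of the 6 granule markers chose the granule-marker nuclei and 4 of the 6 CA3 markers the CA3-marker nuclei. The CA1 markers Fibcd1 and Wfs1 were limited to at most 1 UMI together in CA3-marker nuclei. The CA1 sum of those nuclei is therefore partly set by their rule. Granule markers summed to 30.3 to 48.7 CPM in Control and 23.99 to 27.9 in Kat6a-cKO over all 204 nuclei, against at least 1400 CPM in granule-marker nuclei. The 5 inhibitory markers summed to 19.6 and 28.1 CPM in Control, and to 29.2 and 240 CPM in Kat6a-cKO. The highest of these came from 1 nucleus of Kat6a-cKO replicate 2 with 236 Erbb4 UMIs, 4 UMIs of Slc32a1 and none of Gm32647, out of 19595. Astrocyte markers summed to 300.4 to 330 CPM in Control and 373 to 377 in Kat6a-cKO, and oligodendrocyte markers to 54.3 to 55.9 and 70.7 to 78.0. Both glial sums were higher in Kat6a-cKO, and their part in the results below was not tested. The Cajal-Retzius marker Lhx1, the endothelial marker Cldn5 and the choroid plexus markers Folr1 and Clic6 had no count, but other markers of their lists did. The 5 Cajal-Retzius markers summed to 5.62 and 32.7 CPM in Control and 3.28 to 4.54 in Kat6a-cKO, against 5.78 to 9.79 in CA3-marker nuclei. In Control nuclei with little Gm32647 they reached 80.5 CPM. Vascular markers summed to 3.57 to 8.12 CPM in Control and 1.95 to 4.10 in Kat6a-cKO. Choroid plexus markers reached 5.62 CPM in Control.

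Kat6a itself did not serve as a check of the labels, because the position of the recombination sites is not given in the sources used here and the counts cover the whole gene. Its Control counts of 93 and 106 were 56.5 and 66.0 CPM, and its Kat6a-cKO counts of 86 and 77 were 58.0 and 63.4 CPM. The groups overlapped, with a log2 fold change of -0.01 ± 0.18 (Kat6a-cKO over Control ± SE; edgeR quasi-likelihood test, adjusted p = 0.998). The Cre transgene entry had no count in either Control library and 8 and 5 counts in Kat6a-cKO, in as many nuclei. Over a limit of 3 counts per Control library this is at least 2.54-fold higher, and it follows the labels. Neurod6, whose gene holds the transgene, was at 66.3 and 54.1 CPM in Control and 50.6 and 42.0 in Kat6a-cKO (log2 fold change -0.37 ± 0.20, adjusted p = 0.817).

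Between genotypes, 16 of 9534 genes tested passed a Benjamini-Hochberg adjusted p of 0.05 in the summed nuclei (0.168%), of which 11 were higher in Kat6a-cKO (0.115%) and 5 lower (0.0524%). The genes that rose included the non-coding gene Gm3279, Sncaip (synphilin-1, a partner of alpha-synuclein) and the glutamate receptor Grm3. Those that fell included the glutamate receptor Grm8 and Klhl1, a kelch protein that binds actin. In all 16 the libraries of the groups did not overlap, which among all genes tested was the case for 17.3% in the higher and 18.2% in the lower direction. Before adjustment 614 genes were below 0.05. The count of calls moved with each Control library (97 with replicate 1 left out, 105 with replicate 2) and each Kat6a-cKO library (61 with replicate 1 left out, 77 with replicate 2). The lone library of a group was then assumed to vary like the other group. The 16 genes kept their direction in all 4 of these fits. The fits reuse libraries that chose the 16 genes and called more genes, so this is not independent support. With a minimum of 6 marker UMIs per nucleus, which left fewer nuclei, 7 of the 16 stayed past the threshold. Of the others, 1 was too low to test and Cdh20, Cntn5, Erbin, Frmd5, Gm42397, Ism1, Tmem150b and Zfp804b kept their direction, with adjusted p from 0.0590 (Erbin and Ism1) to 0.432 (Zfp804b). DESeq2 did not call Cdh20 (adjusted p = 0.0509), Gm42397 (adjusted p = 0.153) or Ism1 (adjusted p = 0.229).

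Gm3279 had the smallest p. It is a long non-coding RNA at chr6:55684571-55694574 (GRCm38, plus strand), beside Neurod6 at chr6:55677822-55681263, the locus of the transgene. It had 4 counts in each Control library, and 81 and 66 in Kat6a-cKO, or 2.43 and 2.49 CPM against 54.7 and 54.4. That was a log2 fold change of 4.42 ± 0.34 (adjusted p = 7.35e-05). In Kat6a-cKO 41 of 56 and 30 of 44 nuclei had a UMI of it.

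Among the genes that rose, Sncaip (chr18:52767709-52915935) rested on few molecules, with 7 and 2 counts in Control and 40 and 35 in Kat6a-cKO, and rose by 3.29 ± 0.44 (adjusted p = 0.0104). Erbin (chr13:103818787-103920514), a scaffold protein that binds the receptor ERBB2, stood at 9.73 and 23.6 CPM in Control and 57.4 and 67.6 in Kat6a-cKO (1.90 ± 0.31, adjusted p = 0.0271). Its Control libraries differed from each other, and both lay below the Kat6a-cKO libraries.

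The remaining genes of the higher group differed in role. Cntn5, an immunoglobulin-type adhesion protein, was the most counted of the 11, at 302 and 430 CPM in Control and 634 and 696 in Kat6a-cKO (log2 fold change 0.86 ± 0.15, adjusted p = 0.0466). Cdh20, a cadherin, stood at 13.98 and 14.3 CPM in Control and 39.1 and 53.6 in Kat6a-cKO (1.69 ± 0.27, adjusted p = 0.0240). Frmd5, a FERM-domain protein, stood at 78.4 and 69.7 CPM in Control and 159 and 149 in Kat6a-cKO (1.06 ± 0.15, adjusted p = 0.0132). Each of these genes was higher in both Kat6a-cKO libraries than in both Control libraries. Ism1, a secreted protein, was at 7.90 and 12.4 CPM against 33.7 and 33.8 (adjusted p = 0.0466), and the non-coding Gm42397 at 20.1 and 18.05 against 49.9 and 51.1 (adjusted p = 0.0283). Zfp804b, a zinc finger gene, was at 34.0 and 37.3 CPM against 79.6 and 104, but 64 of its 126 counts in Kat6a-cKO replicate 2 came from the nucleus rich in Erbb4. Without that nucleus Zfp804b stood at a log2 fold change of 0.90 (adjusted p = 0.279), against 1.35 ± 0.20 (adjusted p = 0.0151) with it. Without it, Frmd5 (0.91, adjusted p = 0.0803) and Cntn5 (0.84, adjusted p = 0.0511) also missed the threshold, and the other 13 genes kept their call.

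**Figure D3:**
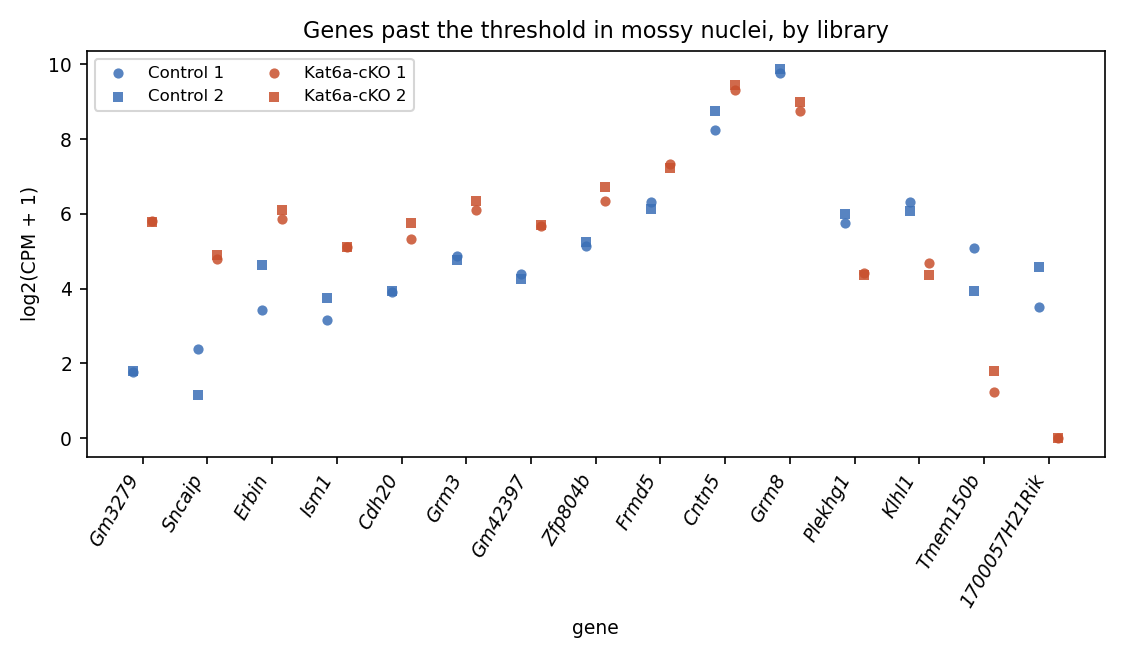
Log2(CPM + 1) (y axis) of 15 of the 16 genes past the threshold (x axis, from the largest rise to the largest fall) in the 4 sums of mossy-rule nuclei. Blue marks are Control and orange marks Kat6a-cKO, circles replicate 1 and squares replicate 2; blue and orange do not overlap for any of the 15.

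Grm3 and Grm8 moved in opposite directions. Both encode metabotropic glutamate receptors that couple to inhibitory G proteins, Grm3 of group II and Grm8 of group III, which acts mainly at presynaptic sites. Annotated genes overlap Grm8 (Gm26310, Gm42801 and Mir592) and, among the others, Frmd5, Grm3, Zfp804b, Cdh20, Gm42397, Cntn5 and Klhl1, so that some of their reads may belong to those. Grm3 (chr5:9485541-9725170) stood at 28.6 and 26.1 CPM in Control and 67.5 and 79.9 in Kat6a-cKO, a rise of 1.42 ± 0.20 (adjusted p = 0.0138). Grm8 (chr6:27275119-28135178) stood at 869 and 935 CPM in Control and 432 and 513 in Kat6a-cKO, a log2 fold change of -0.93 ± 0.12 (adjusted p = 0.00902). They were the 2 of 21 tested glutamate receptor genes that passed, against 0.168% of all genes tested, and the median log2 fold change of the 21 was 0.01, against -0.01 for all genes tested. The AMPA subunit genes Gria1 (-0.06 ± 0.10) and Gria2 (0.01 ± 0.11), the NMDA subunit gene Grin2b (0.03 ± 0.10) and Grm5 (0.01 ± 0.11), all above 1600 CPM, had changes within 1 SE of 0. Others moved more: the 21 values ran from -0.95, in a gene that did not pass, to 1.42 for Grm3. With Grm3 and Grm8 counted, the libraries did not overlap for 2 higher and 3 lower genes of the 21, against 17.3% and 18.2% of all genes tested.

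Where Gm32647 was high, Grm8 per nucleus was lower in the Kat6a-cKO libraries, although single nuclei of the 2 groups overlapped. In nuclei with less Gm32647 the median was 0 in all 4 libraries. In the nuclei with much Gm32647 the median was 13.4 and 12.8 Grm8 UMIs per 10000 in the Control libraries and 3.63 and 5.76 in Kat6a-cKO, with highest values of 21.9, 27.0, 17.6 and 14.1. The Kat6a-cKO upper quartiles of 8.25 and 9.84 lay above the Control lower quartiles of 7.26 and 7.41. No Grm8 UMI was found in 4 of 31 and 1 of 39 of these nuclei in Control, and in 7 of 43 and 2 of 32 in Kat6a-cKO. The Control nuclei without Grm8 all lay just above the cutoff, at 20.4 to 27.4 Gm32647 UMIs per 10000, and held no Bmpr1b UMI. Those of Kat6a-cKO held 31.6 to 100 Gm32647 UMIs per 10000. The counts of nuclei without Grm8 therefore depend on a cutoff chosen after seeing the data. Medians and highest values were lower in Kat6a-cKO. Grm3, shown beside it because it moved the other way, had a median of 0 in both Control libraries and of 0.441 and 0.392 per 10000 in Kat6a-cKO. It was at 0 in 23 of 31 and 23 of 39 of these nuclei in Control, and in 16 of 43 and 14 of 32 in Kat6a-cKO. For Grm3 the share of nuclei at 0 was smaller in Kat6a-cKO, where the median nucleus of the rule held fewer UMIs.

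**Figure D4:**
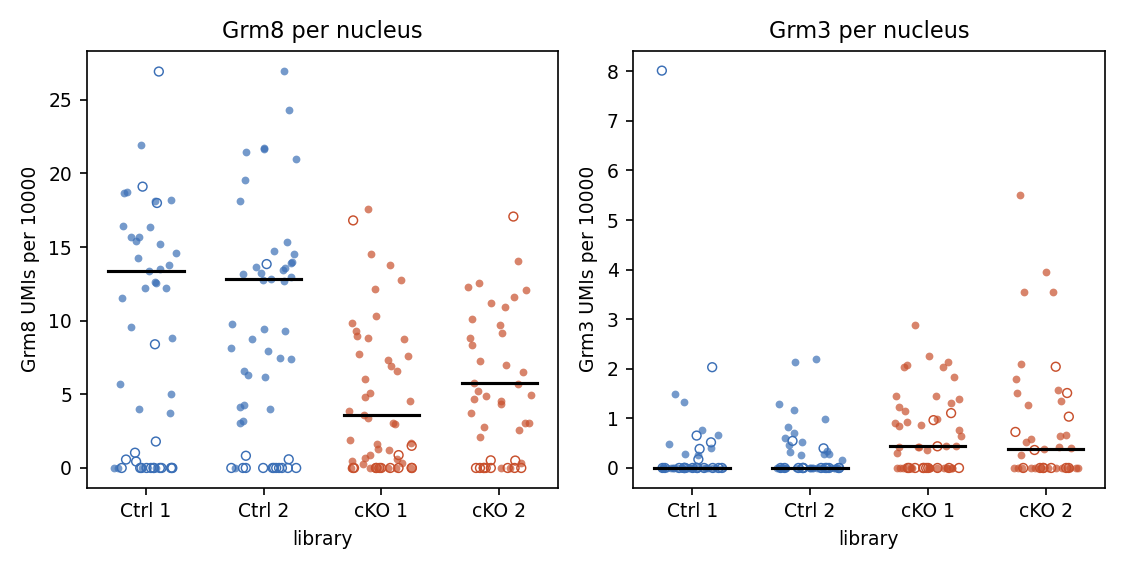
UMIs per 10000 (y axis) of Grm8 (left) and Grm3 (right) in each nucleus of the mossy rule, by library (x axis), blue for Control and orange for Kat6a-cKO. Filled points are nuclei with at least 20 Gm32647 UMIs per 10000, open points the others, and the black bar is the median of the filled points, for Grm8 at 13.4, 12.8, 3.63 and 5.76.

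The other genes that fell were less abundant. Klhl1 (chr14:96102736-96519102) stood at 78.4 and 66.6 CPM in Control and 25.0 and 19.8 in Kat6a-cKO (log2 fold change -1.68 ± 0.22, adjusted p = 0.00902). Plekhg1, a guanine nucleotide exchange factor, stood at 52.9 and 63.5 CPM in Control and 20.2 and 19.8 in Kat6a-cKO (-1.53 ± 0.23, adjusted p = 0.0161). Both groups of libraries were tight for these genes compared with the distance between them, which the test that chose the genes favours. The non-coding 1700057H21Rik (chr2:51420984-51438785) had 17 and 37 counts in Control, in 8 and 11 nuclei, and no count in Kat6a-cKO (adjusted p = 0.0240). Over a limit of 3 counts per Kat6a-cKO library it was at least 7.42-fold lower. Tmem150b (chr7:4706832-4725249), a transmembrane protein gene that overlaps Brsk1, had 54 and 23 counts in Control and 2 and 3 in Kat6a-cKO (adjusted p = 0.0305). Of the 54 counts, 27 came from 1 nucleus. Another 5 genes led the lower direction without passing the threshold: the potassium channel gene Kcnc2 (-0.54 ± 0.11, adjusted p = 0.107), Rerg (-0.68 ± 0.14, adjusted p = 0.117), Man1a (-0.65 ± 0.14, adjusted p = 0.152), Il1rapl2 (-0.70 ± 0.15, adjusted p = 0.168) and the non-coding AC171111.1 (-2.27 ± 0.49, adjusted p = 0.171). Of 17 alternatives, Il1rapl2 was called in 8, Rerg in 7, Kcnc2 in 6, and Man1a and AC171111.1 in 5 each.

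Rspo2, the secreted R-spondin named in the title of the series, did not pass the threshold in these nuclei. R-spondins bind Lgr4, Lgr5 and Lgr6 and remove the ligases Znrf3 and Rnf43 from the membrane, which raises the level of Wnt receptors. Rspo2 stood at 191 and 121 CPM in Control and 98.5 and 74.1 in Kat6a-cKO, a log2 fold change of -0.85 ± 0.21 (adjusted p = 0.280). Both Kat6a-cKO libraries were below both Control libraries, and 41 of 51 and 42 of 53 nuclei had an Rspo2 UMI in Control against 33 of 56 and 26 of 44 in Kat6a-cKO. The median nucleus held fewer UMIs in Kat6a-cKO, and the part of this in the shares with an Rspo2 UMI was not tested. The value moved with single libraries. It was -1.13 without Control replicate 2 (adjusted p = 1.80e-06) and -0.48 when Control replicate 1 was left out (adjusted p = 0.490). It was -1.08 without Kat6a-cKO replicate 1 (adjusted p = 0.000394) and -0.65 when Kat6a-cKO replicate 2 was left out (adjusted p = 0.126). With Prox1, Gad1 and Gad2 at 0 it was -0.93 (adjusted p = 0.0476), and Rspo2 was called in 4 of 17 alternatives in all. Rspo2 changed by -0.37 ± 0.13 in the CA3-marker nuclei and by 0.03 ± 0.16 in the granule-marker nuclei described below. The difference of its change from that in granule nuclei passed the threshold (-0.89 ± 0.18, adjusted p = 0.0446), and the difference from CA3 nuclei did not (-0.46 ± 0.15, adjusted p = 0.505). Both SEs were below the 0.21 of the mossy change alone, so these p-values may not reflect the spread of the mossy sums. Of 44 genes of the R-spondin and Wnt list, 16 were tested and none passed, with a median of 0.07. The receptor gene Lgr4 (-0.26 ± 0.22), Znrf3 (0.28 ± 0.15), Lrp6 (0.07 ± 0.16) and the Wnt target Axin2 (0.00 ± 0.28) had adjusted p of 0.815 or more. Lgr5, Lgr6 and Rnf43 were too low to test.

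No gene passed in the other lists. The potassium and HCN channel list had a median of 0.07 over 27 tested genes, the GABA-A receptor list -0.01 over 11 and the axon guidance and adhesion list -0.06 over 32. Epha7, an ephrin receptor, had the smallest p of the last list, at 1024 and 1074 CPM in Control and 791 and 765 in Kat6a-cKO (-0.43 ± 0.11, adjusted p = 0.265). In the dopamine list, which bears on the D2 receptor used by the rule, the 9 tested genes had a median of 0.10 and a range from -0.10 (Kcnj6) to 0.46 (Gnal). The partners of Kat6a in its acetyltransferase complex gave Ing5 at 3.65 and 8.09 CPM in Control and 16.2 and 14.8 in Kat6a-cKO (adjusted p = 0.494), and Brpf3 at 15.2 and 11.8 against 6.07 and 9.06 (adjusted p = 0.794). The 8 tested neuropeptide genes had a median of -0.31, with the granin genes Vgf (-0.61 ± 0.23) and Chgb (-0.54 ± 0.19) not past the threshold. Abundant cytosolic and mitochondrial RNAs had a median of -0.39 over 11 genes, all of them below 0 and none past the threshold. In 5 of the 11 the Kat6a-cKO libraries were both below the Control libraries, as was the case for 18.2% of all genes tested, and their part in the other values was not tested. Immediate early genes had a median of 0.05 over 11, and Arc, at 2.25, had an adjusted p of 0.254.

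The 16 genes, but for 1700057H21Rik, which was too low to test there, were also fitted in the neighbouring excitatory classes. In CA3-marker nuclei and in granule-marker nuclei, Gm3279 was the 1 gene of the 16 that passed within the class, with log2 fold changes of 4.77 ± 0.14 and 3.99 ± 0.28. The interaction of class and genotype, with the library as a block, called 38 of 15869 genes for mossy against CA3-marker nuclei (0.239%), 21 with a more positive change in mossy-rule nuclei (0.132%) and 17 with a more negative one (0.107%). For mossy against granule-marker nuclei it called 36 of 15678 (0.23%), 24 more positive (0.153%) and 12 more negative (0.0765%). Of the 16 genes, 10 were called in the first and 12 in the second. Both tests reuse the mossy-rule sums that chose the 16 genes, so these calls are not independent support. Of those fitted within the class, 12 had the same sign in CA3-marker nuclei and 10 in granule-marker nuclei as in nuclei of the mossy rule. The share of same signs over all genes was not taken. Many of these calls were lost in other fits. Of the 38 CA3 calls, 6 stayed past the threshold with the CA3-marker counts thinned to the mossy total of each library, and of the 36 granule calls 8 and 7 stayed with Kat6a-cKO replicate 1 or 2 left out. All 36 kept their direction in both of these fits, as did the 37 of the 38 that were still tested after thinning.

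Sncaip changed by 0.16 ± 0.20 in CA3-marker nuclei and by 0.06 ± 0.08 in granule-marker nuclei. Its change in mossy-rule nuclei differed by 3.19 ± 0.49 from CA3 (adjusted p = 0.00027) and by 3.25 ± 0.40 from granule nuclei (adjusted p = 0.000376). Sncaip rose in nuclei of the mossy rule, and its changes in the other classes were within 1 SE of 0. Frmd5 differed by 0.97 ± 0.15 and 1.12 ± 0.13, and Grm3 by 1.36 ± 0.21 and 1.28 ± 0.19, all called. Egfem1, a gene of the EGF-like type, was called against CA3 (0.99 ± 0.14, adjusted p = 9.81e-05) and granule nuclei (0.77 ± 0.14, adjusted p = 0.0235), while its own change in mossy-rule nuclei was 0.91 ± 0.22 (adjusted p = 0.242). The interaction fit takes a common spread per gene over mossy-rule sums and the far larger sums of the other class. An SE of a difference can then be below that of the mossy change alone. This held against both classes for Egfem1, Rspo2, Frmd5, Il1rapl2, Spock1 and AC171111.1. It also held against CA3 for Tmem150b, Nrg1 and Rerg, and against granule nuclei for Sncaip, Erbin, Grm3 and Man1a, among others. Such p-values may not reflect the spread of the mossy sums. Erbin differed by 1.72 ± 0.32 from CA3 (adjusted p = 0.00410) and by 1.85 ± 0.27 from granule nuclei (adjusted p = 0.00195).

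In the lower direction, Grm8 differed by -1.06 ± 0.13 from CA3 nuclei (adjusted p = 7.72e-06) and by -1.30 ± 0.13 from granule nuclei (adjusted p = 4.76e-05), where its own changes were 0.12 ± 0.12 and 0.35 ± 0.10. Klhl1 differed by -1.88 ± 0.24 and -2.17 ± 0.28, and Plekhg1 by -1.63 ± 0.26 and -1.59 ± 0.29, all called. Grm8, Klhl1 and Plekhg1 were thus lower in Kat6a-cKO in nuclei of the mossy rule, while none of their changes in the other classes passed the threshold. In CA3-marker and granule-marker nuclei Klhl1 changed by 0.21 ± 0.18 and 0.45 ± 0.19. Plekhg1 changed by 0.10 ± 0.10 and 0.04 ± 0.14, both within 1 SE of 0. Tmem150b (-3.17 ± 0.51) and Nrg1, which encodes neuregulin 1 (-1.01 ± 0.16), were called against CA3 nuclei. Spock1 (-0.78 ± 0.11) was called against granule nuclei, and Il1rapl2 against both granule (-0.83 ± 0.14) and CA3 nuclei (-0.62 ± 0.12). Man1a was also called against CA3 (-0.75 ± 0.14) and granule nuclei (-0.73 ± 0.13), Rerg against CA3 nuclei (-0.64 ± 0.14) and AC171111.1 against granule nuclei (-2.20 ± 0.46). The sums of the other classes hold far more counts. With the granule-marker counts thinned to the mossy total of each library, 37 genes were called, 28 of them among the 36, without Klhl1 (-1.53, adjusted p = 0.495) and Plekhg1 (-1.52, adjusted p = 0.180). The granule comparison called 10 genes with Kat6a-cKO replicate 1 left out and 8 with replicate 2 left out, and 68 and 117 with Control replicate 1 or 2 left out. Erbin, Grm3, Plekhg1 and Spock1 missed its threshold without either Kat6a-cKO library, and Klhl1 and Il1rapl2 without replicate 1. The CA3 comparison called 67 genes with Control replicate 2 left out, and as many with Kat6a-cKO replicate 1 left out, where Nrg1 stood at -0.63 (adjusted p = 0.0576). For Grm8 the difference from CA3 nuclei was -0.91 after thinning (adjusted p = 0.0825), for Sncaip 3.87 (adjusted p = 0.101) and for Egfem1 0.98 (adjusted p = 0.0555), in the same direction and not past the threshold.

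**Figure D5:**
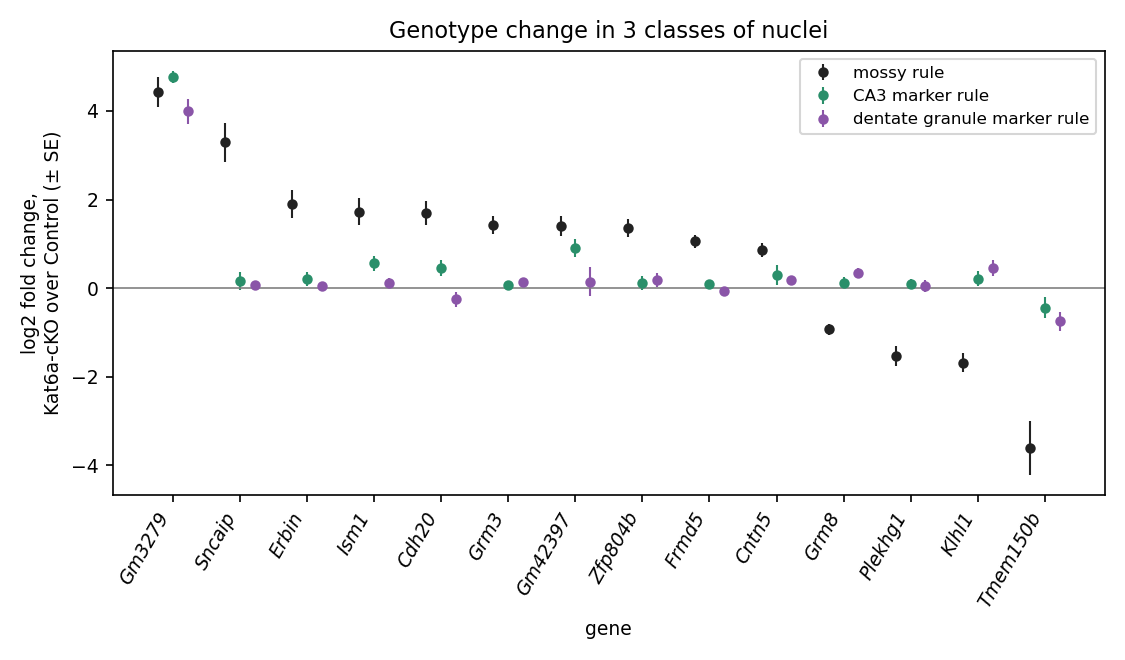
Log2 fold change, Kat6a-cKO over Control, with SE bars (y axis) of 14 of the 16 genes past the threshold in mossy-rule nuclei (x axis), in mossy-rule (black), CA3-marker (green) and dentate-granule-marker nuclei (purple). 1700057H21Rik is left out because it was too low to test in the other classes; Gm3279 lies between 3.99 and 4.77 in all 3 classes, and the green and purple points of the other genes lie between -0.75 and 0.90.

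Other choices of nuclei, made after the split by Gm32647 had been seen, called more genes. The 145 nuclei with at least 20 Gm32647 UMIs per 10000 gave 40 of 8515 genes tested. The nuclei with at least 2 of Drd2, Calb2 and Csf2rb2 gave 53 of 8148, and nuclei chosen by Gm32647 and Bmpr1b without the 4 markers gave 110 of 8649. The 204 nuclei had given 16 of 9534. The 3 choices share most of their nuclei: 127 of the 128 nuclei with the marker pair had much Gm32647, and 24 of 27 and 37 of 45 nuclei of the last choice in Control, and 32 of 42 and 28 of 45 in Kat6a-cKO, also met the mossy rule. A call in all 3 is therefore not independent support. Of the 16 genes, 13 were called in all 3 choices. Zfp804b was called in none of them, with log2 fold changes of 0.86, 0.77 and 0.44 in the order above, Cdh20 missed the threshold in the first (1.31, adjusted p = 0.0844) and Gm42397 in the last (0.99, adjusted p = 0.0509). A further 20 genes were called in all 3 and not in the 204 nuclei, 12 of them higher in Kat6a-cKO and 8 lower. The levels below are CPM in the nuclei with much Gm32647. Gm32647 itself stood at 7801 and 8998 CPM in those nuclei of Control and 7596 and 7603 in those of Kat6a-cKO, which did not overlap.

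The channel gene Trpm3 stood at 91.5 and 85.6 CPM in Control and 268 and 269 in Kat6a-cKO, a log2 fold change of 1.63 ± 0.15 (adjusted p = 7.73e-06), against 0.72 (adjusted p = 0.324) over the 204 nuclei. Kirrel3, an adhesion gene of the immunoglobulin type, stood at 47.6 and 29.1 CPM in Control and 168 and 114 in Kat6a-cKO (1.94 ± 0.25, adjusted p = 0.000277), against 0.23 (adjusted p = 0.904) over the 204. Egfem1 stood at 233 and 231 CPM in Control and 686 and 541 in Kat6a-cKO (1.44 ± 0.14, adjusted p = 1.43e-05). For these genes the value over all 204 nuclei was smaller. Negr1 (0.75 ± 0.11), Lingo2 (0.61 ± 0.10) and Lrrtm4 (1.24 ± 0.22) were also among the 12. Ntm, neurotrimin, which like Negr1 is an adhesion protein of the IgLON family, went the other way, at 577 and 541 CPM in Control and 290 and 268 in Kat6a-cKO (-0.97 ± 0.13, adjusted p = 0.000329). The serotonin receptor Htr7 was higher (1.06 ± 0.21, adjusted p = 0.0206), and the glypican Gpc5 (-1.16 ± 0.19, adjusted p = 0.00506) and Kcnc2 (-0.62 ± 0.11, adjusted p = 0.00759) were lower.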

How the data were processed

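Counts were used as the authors deposited them: whole-number counts per barcode and gene, for all barcodes and 55422 gene IDs, of which 55154 had a symbol. The submitters' processing notes name Seurat 4.0.1 and mm10, with no role. The aligner, counter and counting strand are not given in the sources used here, so reads of overlapping genes cannot be told apart. Libraries held 171323466 to 186897245 counts, and 7911 to 8442 barcodes reached 5000 UMIs. No doublet caller was run; nuclei of high UMI count, and nuclei with markers of other cells, were left out as alternatives.

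For each rule, the counts of its nuclei in a library were added up. CA3-marker nuclei needed 2 of Iyd, Bok, Nectin3 and Cpne4, granule-marker nuclei 2 of Prox1, C1ql2, Dsp and Trpc6, and 4 UMIs of those together. Both also needed at least 1 UMI of Slc17a7 and at most 1 of Gad1 and Gad2 together. CA3-marker nuclei were further held to at most 1 UMI of Prox1 and at most 1 of Fibcd1 and Wfs1 together. Kat6a-cKO was compared with Control by edgeR 4.0.16 (R 4.3.3; quasi-likelihood test, TMM, filterByExpr, Benjamini-Hochberg), and the difference between classes by an interaction term. CPM values in genotype comparisons use TMM-scaled totals; those in descriptions of classes, and in the other choices of nuclei, plain totals. The procedure was tested on simulated data. Named genes were all genes past the threshold, the leading genes by p to fill 10 in a direction, genes of the lists and those named for other classes earlier. The nuclei, lists and named genes were chosen with earlier results of these data known. Positions are those of GENCODE M21 (GRCm38), matched by ID and version. Of the 16 genes past the threshold, 1 is not reported here.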

Additional observations from a re-analysis of the deposited data

Results flagged for a closer look

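The genotype change of these genes differed between nuclei of the mossy rule and a second class of nuclei, by the interaction test of edgeR over all 4 libraries. The values are differences of log2 fold changes, mossy minus the other class. Against CA3-marker nuclei they were 0.99 for Egfem1, 0.97 for Frmd5, 1.36 for Grm3 and 3.19 for Sncaip in the higher direction. In the lower direction they were -1.06 for Grm8, -1.88 for Klhl1, -1.63 for Plekhg1, -3.17 for Tmem150b and -1.01 for Nrg1. Against granule-marker nuclei they were 1.12 for Frmd5, 3.25 for Sncaip, 1.85 for Erbin and 1.28 for Grm3. In the lower direction they were -1.30 for Grm8, -2.17 for Klhl1, -0.78 for Spock1, -0.83 for Il1rapl2 and -1.59 for Plekhg1. Several of these differences missed the threshold in other fits, in the same direction. Against CA3-marker nuclei thinned to the mossy counts, Grm8 was at -0.91 (adjusted p = 0.0825), Sncaip at 3.87 (adjusted p = 0.101), Egfem1 at 0.98 (adjusted p = 0.0555) and Nrg1 at -0.86 (adjusted p = 0.189). Against granule-marker nuclei, Erbin, Grm3, Plekhg1 and Spock1 missed it with either Kat6a-cKO library left out, Klhl1 and Il1rapl2 with Kat6a-cKO replicate 1 left out, and Klhl1 and Plekhg1 with the granule-marker counts thinned. Nrg1 differed by -0.42 (adjusted p = 0.619) from CA3 nuclei when only nuclei with at least 20 Gm32647 UMIs per 10000 were used.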

How the results depend on the processing

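The 16 calls in mossy-rule nuclei became 26 with Prox1, Gad1 and Gad2 at 0, with 14 of the 16 among them. In choices made after seeing the data they became 40 of 8515 genes tested with Gm32647 of at least 20 per 10000 and 53 of 8148 with a marker pair without Ociad2. Nuclei chosen by Gm32647 and Bmpr1b gave 110 of 8649. Leaving out a library gave 61 to 105. DESeq2 gave 15, with 13 of the 16 among them, no filter 17, a filter of 10 CPM 16, 6 marker UMIs 17, leaving out high UMI counts 21, other-cell markers 15 and the Erbb4-rich nucleus 13. With 6 marker UMIs 7 of the 16 stayed past the threshold, and without nuclei with markers of other cells 14 did. The replicate block gave 34, with Rspo2 past the threshold (adjusted p = 0.00810); replicate numbers are not said to pair libraries, and deviations of same-numbered libraries correlated at 0.0122 across genes. The CA3 interaction went from 38 to 97 with Gm32647, 106 with the pair without Ociad2, 73 without a filter and 6 with thinning, and ranged from 50 to 67 without a library. The granule interaction went from 36 to 61, 65 and 78 under the first 3 of these and from 8 to 117 without a library. The share difference turned positive with Gm32647 (0.0243 percentage points), Prox1, Gad1 and Gad2 at 0 (0.0739), Gm32647 with Bmpr1b (0.0871) and the pair without Ociad2 (0.0179), and ran from -0.0855 to 0.0217 without a library. The causes were not tested. Some uncalled changes turned sign. Kat6a was at 0.090 with 6 marker UMIs, 0.15 with Gm32647 and 0.21 both with Gm32647 and Bmpr1b and with the pair without Ociad2. With a library left out, Kat6a ran from -0.12 to 0.10, Jun from -0.54 to 0.30, Angpt1 from -0.56 to 0.81 and Mgat4c from -0.046 to 0.062. Mgat4c was at -0.026 with Gm32647 and Bmpr1b and at -0.0094 without nuclei with markers of other cells. Low counts limit Sncaip, Tmem150b and 1700057H21Rik.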
